A study of Rattus norvegicus with 172 samples.

Results

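The 7 rats given furan at 2.0 mg/kg body weight per day for 90 days were divided into 2 sets chosen by the level of Col1a1 in the liver, and what else differed between these sets at a fixed dose is described here. Col1a1 encodes the alpha-1 chain of type I collagen, the main fibre of scar matrix. Rats at 50 or more CPM (counts per M of a rat's total counts) of Col1a1 were called Col1a1-high (4 rats: ME081, ME082, ME083 and ME085). Rats below 50 were called Col1a1-low (3 rats: ME086, ME089 and ME092). The 7 are part of 38 male Fischer 344 rats in the furan experiment, which also held 8 rats each at 0.03 and 0.12, 7 at 0.5 mg/kg and 8 undosed controls, and of 70 rats in the series. A separate experiment gave 3-methylfuran, which carries a methyl group on the furan ring, to 8 rats each at 0.02, 0.075 and 1.0 mg/kg, with 8 controls of its own. Poly(A) RNA of flash-frozen whole liver was sequenced, 1 library per rat, so every value is a mix of all liver cells. In such a mix, fewer cells of a type and less RNA per cell cannot be told apart.

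Col1a1 stood at 238, 256, 108 and 152 CPM of total counts in the Col1a1-high rats, against 12.4, 9.72 and 16.4 in the Col1a1-low rats. The members nearest the threshold were ME083 (108) inside and ME092 (16.4) outside. In controls it ranged from 4.51 to 18.8 with a median of 8.91, a range that held all 3 Col1a1-low values. These values chose the sets, and they carry no test. Each rat was sequenced in 2 runs, and the runs differed by sampling noise (chi-square per degree of freedom 1.01 to 1.05), beside 7.17 to 24.0 between rats of the same set. Between rats of different sets it was 12.5 to 60.2, a range that overlaps the one within sets. The sets were not labelled by the study and no batch label tells them apart. The Col1a1-high rats carry the lower animal numbers and the Col1a1-low rats the higher ones, the labels do not say what the numbers follow, and whether anything other than the dose was shared within a set was not tested.

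Furan is oxidised in hepatocytes to a reactive dialdehyde, chiefly by the P450 enzyme Cyp2e1. Repeated liver injury activates stellate cells and portal fibroblasts, which turn into contractile myofibroblasts that lay down collagen, crosslink it and secrete inhibitors of its breakdown. Recruited macrophages with a lipid-handling programme gather at such scars, and bile duct cells often multiply beside them. In rat liver treated with furan, bile duct hyperplasia and fibrosis around the ducts are known lesions.

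Total counts were 16.0 to 19.2 M in Col1a1-high rats and 16.6 to 20.0 M in Col1a1-low rats. Detected genes numbered 17371 to 17706 in Col1a1-high rats, 16578 to 16927 in Col1a1-low rats and 15953 to 16406 in controls. The trimmed-mean (TMM) scaling factors were up to 1.40 in Col1a1-high rats, 1.02 to 1.20 in Col1a1-low rats and 0.894 to 0.964 in controls, so the scaling itself moved with the split. Levels below are CPM after this scaling, and differences are of mean log2 CPM with a prior count of 2. The median difference of all genes, high minus low, was -0.02 with TMM scaling and 0.26 with total counts. Hepatocyte identity was plain in all 7 rats, with albumin (Alb) at 65212 to 82806 CPM in Col1a1-high rats, 79558 to 104470 CPM in Col1a1-low rats and 112250 to 131150 CPM in controls.

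A gene is called separated when the lowest of the 4 Col1a1-high values lies above the highest of the 3 Col1a1-low values, or the reverse. No p-value is given for this split, because the sets were made from the same libraries. Of 12727 genes tested, 580 (4.56%) were separated and at least 2-fold higher in Col1a1-high rats, and 8 (0.0629%) were separated and at least 2-fold lower. At any size, 1807 genes (14.2%) were separated higher and 2140 (16.8%) lower. The higher genes thus held nearly all the large differences, while the lower ones were many and small. With total counts in place of TMM scaling, 4431 genes were separated higher and 305 lower, so the count of lower genes rests on the scaling. Without ME092, the Col1a1-low rat with the most Col1a1, 892 genes were separated and at least 2-fold higher. The first principal component of the 7 rats held 62.3% of their variance. Its scores were 24.2, 34.9, 9.996 and 23.6 in Col1a1-high rats, against -38.4, -38.6 and -15.7 in Col1a1-low rats, of which ME092 lay nearest to the Col1a1-high rats.

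Many collagen genes were higher in Col1a1-high rats. Leaving out Col1a1, which chose the sets, 13 of 22 collagen genes tested were separated higher (11 of them at least 2-fold) and 1 lower (Col18a1, a basement membrane collagen gene that hepatocytes also express), with a median difference of 1.12. Col3a1, the chain of type III collagen, was at 506, 588, 340 and 406 CPM in Col1a1-high rats, against 130, 135 and 127 CPM in Col1a1-low rats and 117 to 225 CPM in controls. Every Col1a1-low value of Col3a1 lay within the control range and every Col1a1-high value above it. Col6a2, a chain of the beaded-filament collagen VI, was at 102, 113, 61.1 and 69.7 CPM in Col1a1-high rats, against 26.7, 26.4 and 22.9 CPM in Col1a1-low rats. Col12a1, a collagen that decorates fibrils, differed by 1.92, and the basement membrane chain Col4a1 by 1.42. Over these 22 genes the median log2 difference from controls was 0.97 in Col1a1-high rats and -0.20 in Col1a1-low rats. All 4 Col1a1-high rats exceeded every control in 10 of the 22, and all 3 Col1a1-low rats did so in 1.

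Enzymes that crosslink and fold collagen were also among the separated genes. Lox, the lysyl oxidase that crosslinks collagen and elastin, was at 11.6, 10.1, 6.65 and 5.98 CPM in Col1a1-high rats, against 0.684, 0.663 and 0.957 CPM in Col1a1-low rats and 0.469 to 1.60 CPM in controls. The sets did not overlap, and the difference was 3.25. Loxl1, a lysyl oxidase-like enzyme of elastic fibres, differed by 2.13 and Plod2, a lysyl hydroxylase that prepares collagen for crosslinks, by 2.28. Serpinh1, the collagen chaperone HSP47, was at 46.0, 48.6, 36.1 and 42.5 CPM in Col1a1-high rats, against 18.2, 17.8 and 20.2 CPM in Col1a1-low rats. Of 23 genes of collagen processing tested, 13 were separated higher and 1 lower.

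Postn (periostin, a matrix protein of active fibroblasts), Spp1 (osteopontin, a secreted phosphoprotein of duct cells and macrophages) and Mmp12 (macrophage elastase) had the largest differences among the named genes, and their start-site sequences are shown beside that of Cyp3a9, which ran the other way. Sequences are RefSeq, build GRCr8, 150 bases before each gene's start, written 5′ to 3′ on the gene's own strand. Capitals mark matches, on either strand, to 6 short motifs: AP-1 (TGANTCA), TEAD (GGAATG), the TATA box (TATAAA), the CCAAT box (CCAAT), the GC box (GGGCGG) and the core of the antioxidant response element (TGANNNNGC).
Postn, chr2:140677911-140678060, + strand: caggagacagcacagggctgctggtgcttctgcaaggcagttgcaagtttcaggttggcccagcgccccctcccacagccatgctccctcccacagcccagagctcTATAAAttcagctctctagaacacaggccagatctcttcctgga
Spp1, chr14:5619805-5619954, - strand: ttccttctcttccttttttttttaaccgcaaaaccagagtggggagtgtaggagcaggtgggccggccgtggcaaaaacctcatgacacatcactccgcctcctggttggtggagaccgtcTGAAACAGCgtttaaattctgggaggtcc
Mmp12, chr8:12866502-12866651, + strand: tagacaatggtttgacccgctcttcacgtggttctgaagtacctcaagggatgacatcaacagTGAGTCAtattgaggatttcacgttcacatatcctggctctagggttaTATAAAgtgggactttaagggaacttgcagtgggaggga
Cyp3a9, chr12:21960161-21960310, - strand: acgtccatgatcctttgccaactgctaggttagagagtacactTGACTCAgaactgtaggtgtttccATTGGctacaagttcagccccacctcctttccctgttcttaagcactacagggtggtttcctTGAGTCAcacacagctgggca
Mmp12 held an AP-1 match and a TATA box, Postn a TATA box, Spp1 an antioxidant response core, and Cyp3a9 2 AP-1 matches and a CCAAT box on the opposite strand. AP-1 letters stood in 5.69% of the 404 promoters matched for the 580 higher genes, in 2.11% of 1519 matched for the 2140 lower genes and in 2.33% of 8696 matched for all genes tested. TATA boxes stood in 7.18% of the higher genes' promoters and 3.86% of all. The antioxidant response core stood in 23.5% and 24.7%. A match is a string of letters, not a site shown to be bound.

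Postn was at 10.3, 9.99, 5.33 and 6.02 CPM in Col1a1-high rats, against 0.0489, 0.111 and 0.252 CPM in Col1a1-low rats and 0 to 0.0781 CPM in controls. Spp1 was at 30.4, 21.4, 21.7 and 20.8 CPM in Col1a1-high rats, against 0.440, 0.221 and 3.27 CPM in Col1a1-low rats. Mmp12 was at 19.4, 22.1, 12.7 and 21.0 CPM in Col1a1-high rats, against 0.391, 0.387 and 2.92 CPM in Col1a1-low rats. ME092 was the highest Col1a1-low rat for all 3, still below every Col1a1-high rat. Their log2 differences were 4.99 for Postn, 4.76 for Spp1 and 4.33 for Mmp12. Of 38 non-collagen matrix genes tested, 29 were separated higher (19 at least 2-fold) and 1 lower, among them the fibrillin gene Fbn1 (1.70), the thrombospondin gene Thbs1 (2.13) and the fibulin gene Fbln1 (2.14). The summed level of the non-collagen matrix list was 5018.6 to 5690.5 CPM in Col1a1-high rats and 5494.1 to 6945.2 CPM in Col1a1-low rats. In controls it was 7191.5 to 8208.3 CPM, so the sum did not follow the count of members. Among 19 matrix proteases and inhibitors, 12 were separated higher, including Timp1, an inhibitor of collagenases (2.01).

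**Figure D1:**
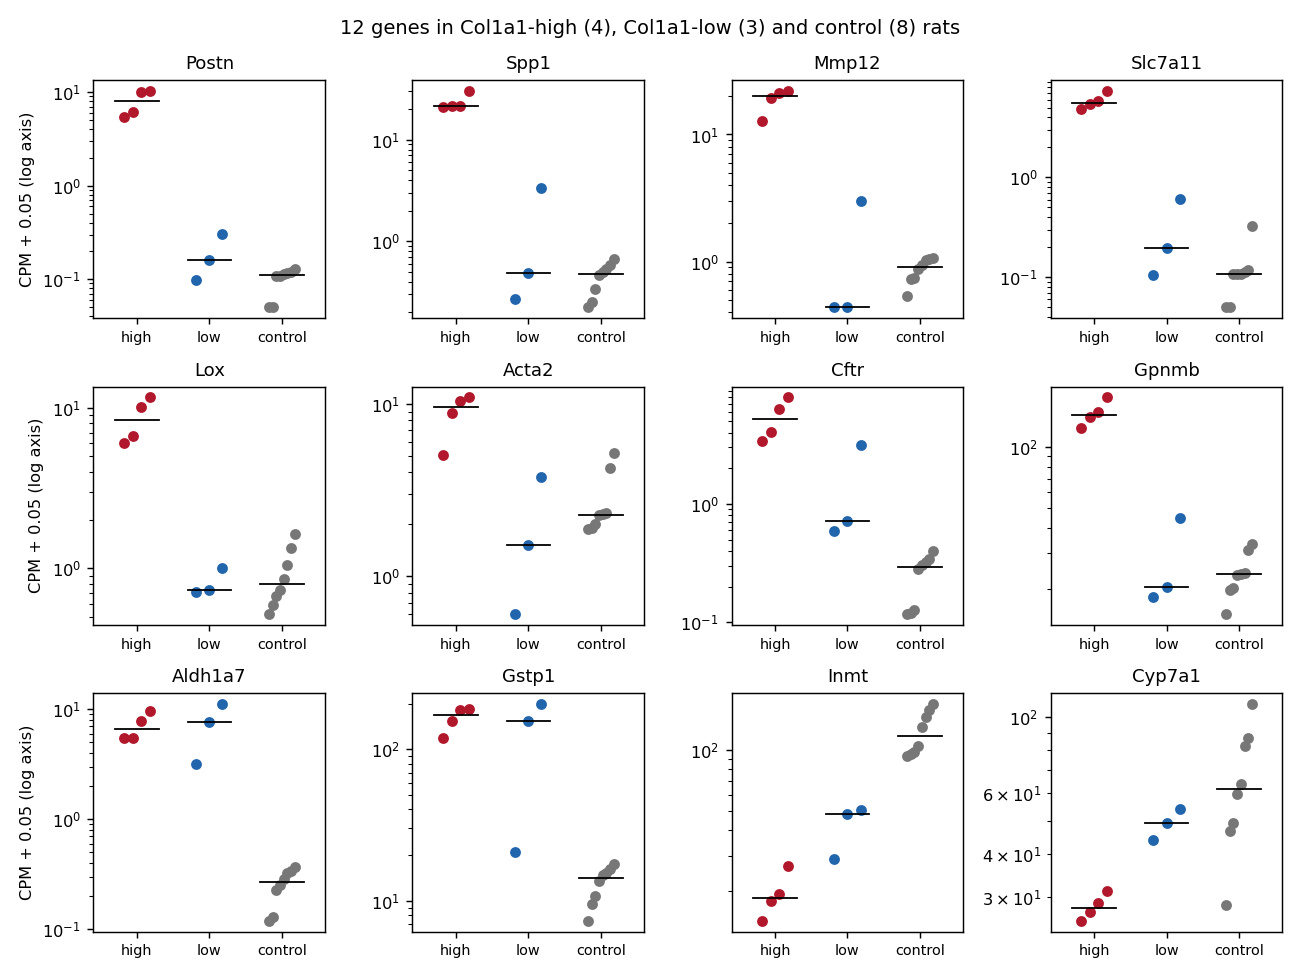
Level of 12 genes in Col1a1-high rats (4, left in each panel), Col1a1-low rats (3, middle) and furan controls (8, right), as CPM + 0.05 on a log axis, 1 point per rat with a line at the median. Postn, Spp1, Mmp12, Slc7a11 and Lox sit at or near control in most Col1a1-low rats and far above it in Col1a1-high rats, whereas Aldh1a7 is above control in all 7 and Gstp1 is near control in ME086 (20.9 CPM).

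Nearly all members of the myofibroblast list were higher in Col1a1-high rats, and those of the stellate cell list less so. The myofibroblast list is not only of contractile genes. It shares Lox, Postn, Timp1, Fbln2 and Ltbp2 with the collagen processing, non-collagen matrix and protease lists above. Of 14 myofibroblast markers tested, 13 were separated higher (10 at least 2-fold) and 1 lower (Cald1, a widely expressed actin-binding protein gene, -0.21), with a median difference of 1.73. Acta2, the smooth muscle actin that marks activated stellate cells, was at 10.8, 10.4, 5.02 and 8.79 CPM in Col1a1-high rats, against 1.47, 0.552 and 3.73 CPM in Col1a1-low rats and 1.82 to 5.16 CPM in controls. ME083 lay inside the control range for Acta2, so this gene set the sets apart from each other but not every Col1a1-high rat from controls. Of 14 portal fibroblast and mesothelial markers, 11 were separated higher, among them Eln, the elastin gene (1.33), and Msln, a mesothelial surface protein gene (1.66). Summed over this list, levels were 405 to 506 CPM in Col1a1-high rats, 420 to 495 CPM in Col1a1-low rats and 532 to 692 CPM in controls. Of 17 stellate cell markers, 8 were separated higher and 1 lower, with a median of 0.40. Their median log2 difference from controls was -0.17 in Col1a1-high rats and -0.40 in Col1a1-low rats. Cygb, the stellate cell globin, differed by 1.57, while Reln, which encodes the secreted glycoprotein reelin, differed by 0.57 and Lrat, which stores vitamin A in resting stellate cells, by 0.62. Smooth muscle and pericyte markers had 2 of 11 separated higher, a share near the 14.2% of all genes, led by the actin-binding Tagln (1.64).

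In signalling genes the ligand Tgfb3 stood out. It was at 11.4, 15.8, 7.93 and 10.1 CPM in Col1a1-high rats, against 2.83, 2.15 and 2.87 CPM in Col1a1-low rats and 2.19 to 4.41 CPM in controls. Tgfb1, the main profibrotic isoform, was separated with a smaller difference of 0.87. Ctgf, a matricellular target of that pathway, overlapped between the sets: 16.3, 19.1, 10.2 and 16.1 CPM in Col1a1-high rats, against 6.31, 11.8 and 5.54 CPM in Col1a1-low rats. Of 27 genes of TGF-beta and PDGF signalling, 10 were separated higher and 2 lower (median 0.29). Among 18 YAP and TEAD target genes, 6 were separated higher and 1 lower, with Myof, a membrane repair gene, at 1.64.

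Markers of lipid-associated macrophages differed more often than those of macrophages in general, a contrast that was not tested. Of 15 markers of lipid-associated macrophages tested, 9 were separated higher (8 at least 2-fold) and 1 lower, with a median of 1.43. The exception was Apoe, an apolipoprotein gene that hepatocytes also express, at 8848, 8170, 8712 and 7948 CPM in Col1a1-high rats, against 12366, 11891 and 9336 CPM in Col1a1-low rats. With Apoe in it, the summed level of the list was 9145 to 10085 CPM in Col1a1-high rats, 10270 to 13411 CPM in Col1a1-low rats and 13933 to 18631 CPM in controls, so the sum runs against the count of members. Gpnmb, a glycoprotein of lipid-laden macrophages, was at 149, 176, 124 and 141 CPM in Col1a1-high rats, against 20.3, 18.1 and 44.6 CPM in Col1a1-low rats and 14.9 to 33.3 CPM in controls. Trem2, a lipid-sensing receptor, was at 3.95, 3.98, 2.95 and 2.81 CPM in Col1a1-high rats, against 0.098, 0.276 and 0.202 CPM in Col1a1-low rats. Lyz2, the lysozyme gene of the general macrophage list, was at 86.6, 106, 77.3 and 72.9 CPM in Col1a1-high rats, against 11.3, 9.34 and 14.3 CPM in Col1a1-low rats, all of which lay in the control range of 7.42 to 15.6. Lyz2 was 1 of 3 separated higher among the 14 general macrophage markers, whose median was 0.29, beside 14.2% of all genes separated higher. Clec4f, the lectin of resident Kupffer cells, was at 118, 134, 104 and 103 CPM in Col1a1-high rats, against 112, 92.8 and 151 CPM in Col1a1-low rats, and overlapped. Summed over the general list, levels were 654 to 915 CPM in Col1a1-high rats, 437 to 793 CPM in Col1a1-low rats and 517 to 942 CPM in controls. Antigen presentation genes had 10 of 13 separated higher (median 1.00), with the invariant chain gene Cd74 at 261, 295, 213 and 226 CPM in Col1a1-high rats, against 133, 87.5 and 180 CPM in Col1a1-low rats. T and NK cell markers had 3 of 12 separated higher, and B and plasma cell markers 0 of 5, again beside 14.2% of all genes. Summed levels of T and NK cell markers were 43.4 to 59.0 CPM in Col1a1-high rats, 25.1 to 46.4 CPM in Col1a1-low rats and 20.8 to 55.6 CPM in controls.

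Cholangiocyte genes were higher in both sets than in controls, and most in Col1a1-high rats. Of 26 markers tested, 16 were separated higher and 1 lower (Tm4sf4, a tetraspanin-like gene also expressed by hepatocytes, -0.25). The list's median log2 difference from controls was 1.97 in Col1a1-high rats and 0.78 in Col1a1-low rats. Cftr, the chloride channel of duct cells, was at 6.27, 7.87, 3.35 and 3.97 CPM in Col1a1-high rats, against 0.538, 0.663 and 3.07 CPM in Col1a1-low rats and 0.0674 to 0.347 CPM in controls. Sox9, the duct-fate transcription factor, was at 3.67, 3.46, 2.73 and 3.43 CPM in Col1a1-high rats, against 0.538, 0.552 and 1.66 CPM in Col1a1-low rats. ME092 lay above the other two Col1a1-low rats in both genes. The summed level of the list was 1244 to 1520 CPM in Col1a1-high rats, 843 to 1204 CPM in Col1a1-low rats and 554 to 810 CPM in controls, and none of its members was at 0 in all 7 rats. Because Spp1 is a marker of duct cells and of macrophages as well as a matrix gene, its source could not be told, and the part of duct cells in the split was not tested.

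**Figure D2:**
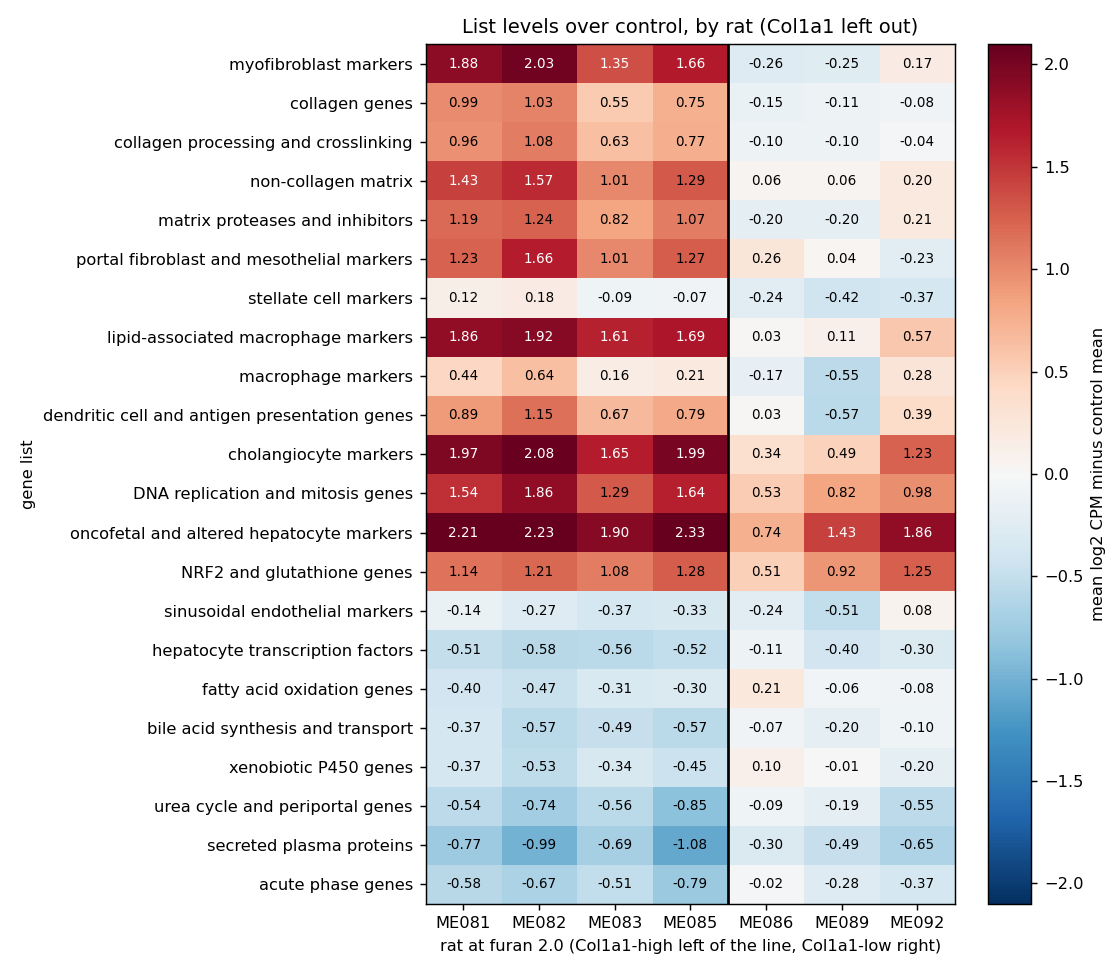
Mean log2 CPM of each gene list minus its control mean, for the 4 Col1a1-high rats (left of the line) and the 3 Col1a1-low rats (right), with Col1a1 left out of every list. Collagen and myofibroblast lists lie between -0.26 and 0.18 in Col1a1-low rats, while cholangiocyte, replication, oncofetal and NRF2 lists are above 0 in all 7 and highest among Col1a1-low rats in ME092.

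Replication and mitosis genes were highest in Col1a1-high rats, intermediate in Col1a1-low rats and lowest in controls. Of 34 tested, 29 were separated higher and 0 lower, but only 8 by 2-fold. The median over controls was 1.72 in Col1a1-high rats and 0.82 in Col1a1-low rats. Mki67, the proliferation antigen, was at 20.6, 28.3, 16.1 and 22.7 CPM in Col1a1-high rats, against 9.09, 11.5 and 12.1 CPM in Col1a1-low rats and 1.75 to 7.97 CPM in controls. All 7 rats lay above every control for Mki67. AP-1 and early growth genes had 12 of 21 separated higher and 0 lower. Their summed level overlapped between the sets, at 299 to 321 CPM in Col1a1-high rats and 267 to 371 CPM in Col1a1-low rats. Both ranges lay below the controls (394 to 807 CPM). Fosl1, an AP-1 subunit, was at 4.28, 4.54, 2.29 and 3.75 CPM in Col1a1-high rats, against 0.147, 0.166 and 0.101 CPM in Col1a1-low rats and 0 to 0.231 CPM in controls. Atf3, a stress-induced partner of the same family, differed by 2.7, while Dusp1, a phosphatase of MAP kinases, overlapped. Dusp1 was at 49.2, 49.3, 44.7 and 37.5 CPM in Col1a1-high rats, against 122, 40.5 and 90.0 CPM in Col1a1-low rats and 182 to 510 CPM in controls.

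Genes that answer to electrophiles did not divide the rats by Col1a1 as a group. Of 32 NRF2 and glutathione genes, 4 were separated higher and 6 lower, shares near the 14.2% and 16.8% of all genes. Their median difference was 0.04, and their median over controls was 0.53 in Col1a1-high rats and 0.45 in Col1a1-low rats. Aldh1a7, an aldehyde dehydrogenase, was at 7.82, 5.40, 5.42 and 9.5 CPM in Col1a1-high rats, against 3.13, 7.57 and 11.1 CPM in Col1a1-low rats and 0.0687 to 0.319 CPM in controls. Gstp1, the glutathione transferase that marks altered rat hepatocytes, was at 180, 154, 118 and 184 CPM in Col1a1-high rats, against 20.9, 153 and 198 CPM in Col1a1-low rats and 7.29 to 17.4 CPM in controls. Both genes overlapped between the sets, stood above every control in all 7 rats and were lowest in ME086. An exception was Slc7a11, the cystine importer, at 5.34, 7.35, 4.80 and 5.71 CPM in Col1a1-high rats, against 0.147, 0.0552 and 0.554 CPM in Col1a1-low rats. Akr1b8, an aldo-keto reductase, was graded: 51.5, 54.0, 35.7 and 75.1 CPM in Col1a1-high rats, against 2.05, 8.45 and 28.1 CPM in ME086, ME089 and ME092. Of 22 p53 target genes, 5 were separated higher and 1 lower, beside 14.2% and 16.8% of all genes. Ccng1, a cyclin induced by p53, was at 53.3 to 63.4 CPM in Col1a1-high rats, 40.2 to 51.0 CPM in Col1a1-low rats and 25.2 to 30.3 CPM in controls.

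Several lists of hepatocyte function were lower in Col1a1-high rats by small amounts, and not all of them under both scalings. Of 28 fatty acid oxidation genes, 23 were separated lower and 0 higher, with a median of -0.42, and of 33 plasma protein genes 23 were separated lower and 0 higher (-0.42). With total counts as the scaling these became 6 of 28 (median -0.14) and 8 of 33 (-0.14), beside 305 of all 12727 genes. Hepatocyte transcription factors had 6 of 20 separated lower, and 0 with total counts. Fatty acid and cholesterol synthesis genes had 4 of 30 separated lower, a share below the 16.8% of all genes. With total counts 0 were, and their median was 0.08 instead of -0.20. Ehhadh, a peroxisomal enzyme of fatty acid oxidation, was at 232, 211, 303 and 248 CPM in Col1a1-high rats, against 392, 398 and 327 CPM in Col1a1-low rats and 328 to 471 CPM in controls. The list as a whole differed from controls by -0.49 in Col1a1-high rats and by -0.03 in Col1a1-low rats. Of 25 bile acid genes 15 were separated lower (9 with total counts), with Cyp7a1, the rate-limiting enzyme of bile acid synthesis, at 27.0, 31.1, 25.5 and 28.7 CPM in Col1a1-high rats, against 43.8, 49.3 and 53.9 CPM in Col1a1-low rats and 28.4 to 109 CPM in controls. Of 33 P450 genes 15 were separated lower and 1 higher (median -0.51, and -0.23 with total counts). The furan-activating Cyp2e1 was at 2594, 2549, 2180 and 2357 CPM in Col1a1-high rats, against 4987, 3106 and 3329 CPM in Col1a1-low rats and 2484 to 4369 CPM in controls. Its sets did not overlap (difference -0.62), and all 3 Col1a1-low and 2 of the Col1a1-high values were above the lowest control.

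Among the separated genes named, Inmt, an indolethylamine methyltransferase, had the largest difference toward lower values (-1.11). It was at 26.6, 17.9, 19.3 and 14.2 CPM in Col1a1-high rats, against 48.0, 50.6 and 29.0 CPM in Col1a1-low rats and 93.4 to 168 CPM in controls. All 7 rats lay below every control, the Col1a1-high rats furthest. Cyp3a9, a P450 of steroid and drug oxidation, was at 38.05, 35.9, 47.8 and 30.8 CPM in Col1a1-high rats, against 116, 61.8 and 54.5 CPM in Col1a1-low rats and 46.1 to 120 CPM in controls. Crot, which passes medium-chain acyl groups out of peroxisomes, differed by -0.90, and Cxcl12, a chemokine that holds blood progenitors and lymphocytes, by -0.81. Sinusoidal endothelial markers had 0 of 15 separated higher and 1 lower, with a median of -0.08. Of other cell types, 1 of 6 red blood cell genes and 1 of 6 adipocyte genes were separated higher and 0 lower, and 0 of 3 pancreatic acinar genes were higher and 2 lower (median -0.66). Over all genes the shares were 14.2% higher and 16.8% lower, and lists this short cannot be told from them.

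The labelled comparison, all 7 rats at 2.0 against the 8 controls, was tested with the edgeR quasi-likelihood test in a fit of all 38 rats. At a Benjamini-Hochberg adjusted p under 0.05, 3054 genes (24.0%) were higher and 2869 (22.5%) lower. Col3a1 rose by 1.01 ± 0.31 on the log2 scale (SE, adjusted p = 0.00797), although its Col1a1-low values all lay inside the control range. Lox rose by 2.56 ± 0.55 (adjusted p = 0.000271). Because the spread between the sets enters the residual of this fit, a small adjusted p favours genes alike in both sets. Among those with the smallest, Aldh1a7 rose by 5.04 ± 0.34 (adjusted p = 8.94e-14) and Serpina4, a plasma serine protease inhibitor, fell by 1.28 ± 0.08 (adjusted p = 6.68e-14), with 485, 425, 485 and 366 CPM in Col1a1-high rats, 704, 598 and 474 CPM in Col1a1-low rats and at least 1068 CPM in controls. Of the 3054 genes called higher, all 4 Col1a1-high rats exceeded the highest control in 64.3%, and all 3 Col1a1-low rats did so in 31.7%. The median log2 difference from controls of these genes was 0.60 in Col1a1-high rats and 0.36 in Col1a1-low rats. Of the 2869 called lower, all 4 Col1a1-high rats lay below the lowest control in 67.9%, and all 3 Col1a1-low rats in 28.7%. With total counts as the scaling, 8678 genes were called higher and 773 lower.

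Whether the same genes go with Col1a1 elsewhere was tested in the 31 furan rats outside the 2.0 dose, which the rule did not use. Log2 Col1a1 was entered beside the dose group, and the slope is the log2 change of a gene per doubling of Col1a1 within a dose. Of 12379 genes, 595 (4.81%) had a positive slope and 126 (1.02%) a negative one at an edgeR adjusted p under 0.05. Col1a1 and the tested gene come from the same library and scaling, so errors that a library shares between genes enter this slope. Of the 580 genes separated and at least 2-fold higher at 2.0, 492 could be tested, beside 12379 of all 12727 genes. The rest, apart from Col1a1 itself, did not pass the filter on low counts in these 31 rats. Of the 492 tested, 312 (63.4%) had a positive slope and 0 a negative one. These are 52.4% of all genes with a positive slope. Of the 2132 genes separated lower, 75 had a negative slope, against 0 with a positive one. With total counts, 1165 slopes were positive and 20 negative.

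The fibrous matrix gave the closest relations. The slope of Lox was 0.84 ± 0.06 (SE, adjusted p = 7.29e-11), that of Col3a1 0.47 ± 0.03 (adjusted p = 7.29e-11) and that of Loxl1 0.82 ± 0.06 (adjusted p = 9.51e-11). Gpx3, a secreted glutathione peroxidase, had a slope of 0.41 ± 0.03 and C7, a complement component, 0.70 ± 0.05. By list, 11 of 13 myofibroblast markers tested were positive, 11 of 14 portal fibroblast markers, 20 of 34 non-collagen matrix genes (1 negative), 11 of 21 collagens and 14 of 25 cholangiocyte markers. Lipid-associated macrophage markers had 8 of 14 positive, and antigen presentation genes 8 of 13, beside 1 of 14 general macrophage markers. Plasma protein genes had 13 of 33 negative, whereas 0 of 28 fatty acid oxidation genes were called in either direction. Over all genes 4.81% had a positive slope and 1.02% a negative one, so 0 of 28 cannot tell fatty acid oxidation from genes in general. Replication genes had 9 of 32 positive and NRF2 genes 5 of 29.

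**Figure D3:**
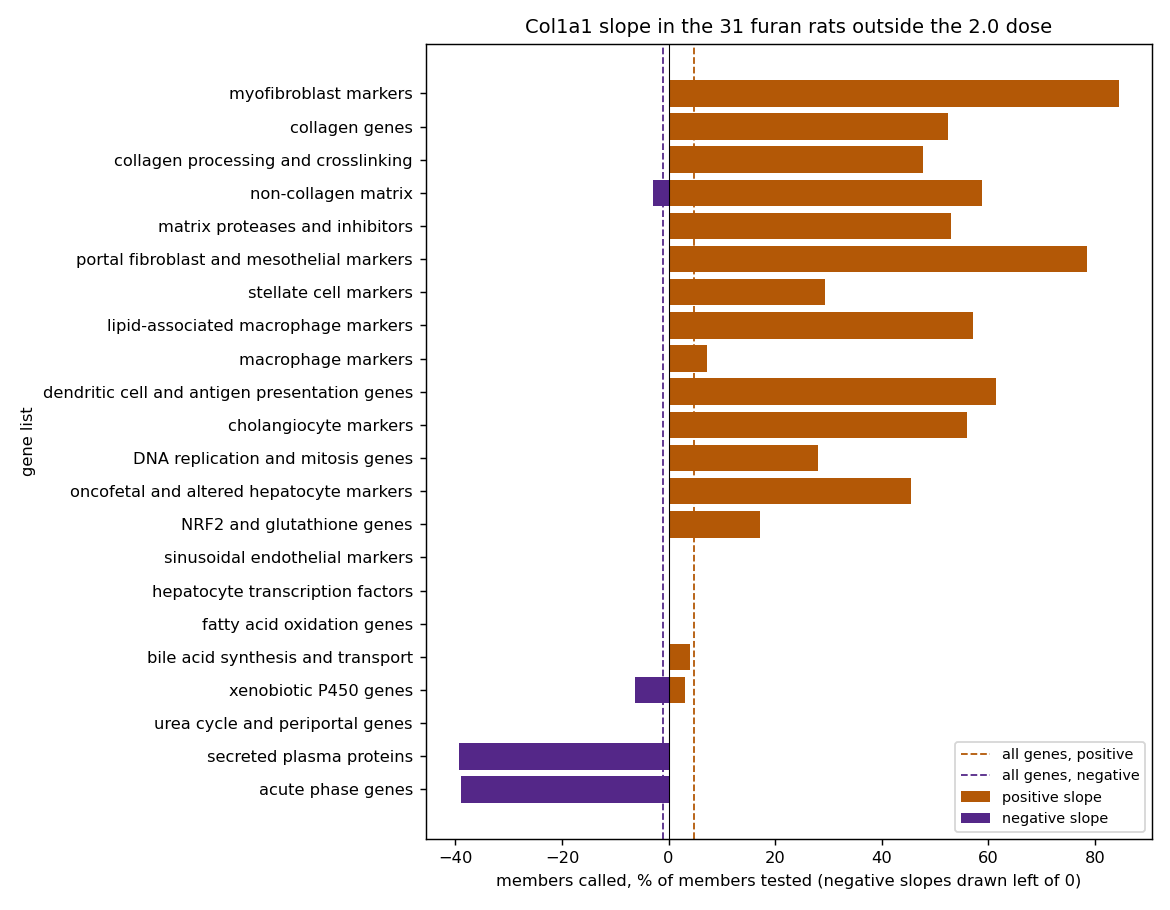
Share of each list's tested members with a called Col1a1 slope in the 31 furan rats outside the 2.0 dose, positive slopes to the right of 0 and negative to the left. Dashed lines give the share over all genes (4.81% positive, 1.02% negative); fibroblast, matrix and antigen presentation lists lie far right of it and plasma protein and acute phase lists far left.

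Single rats carried much of this. At 0.5 mg/kg, rat MD063 had Col1a1 at 91.0 CPM and MD069 at 36.2 CPM, beside a group median of 9.41 CPM. On this scale MD063 lay above the Col1a1-high rat ME083 (86.1 CPM). On total counts, which made the sets, the highest rat at 0.5 mg/kg (96.7 CPM) lay below ME083 (108 CPM). MD063 had 16.9 CPM of Spp1, 24.3 CPM of Mmp12, 81.0 CPM of Lyz2 and 118 CPM of Gpnmb. MD069 had 9.82 CPM of Spp1, 27.1 CPM of Mmp12, 46.1 CPM of Lyz2 and 94.1 CPM of Gpnmb. For Mmp12 both lay above the Col1a1-high range at 2.0, and for Spp1, Lox (5.14 and 2.14 CPM) and Postn (3.16 and 1.04 CPM) below it. At 0.12 mg/kg, MB045 had Col1a1 at 53.6 CPM and Col3a1 at 373 CPM but Spp1 at 2.75 CPM and Mmp12 at 5.01 CPM, which were lower than in MD063. These rats were picked out after their values were seen. Without MD063 and MB045, the 2 rats farthest from the median, 374 genes had a called slope, and 199 of 485 separated genes (41%) were positive, beside 2.54% of all genes. Without the 0.5 dose 461 genes were called.

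**Figure D4:**
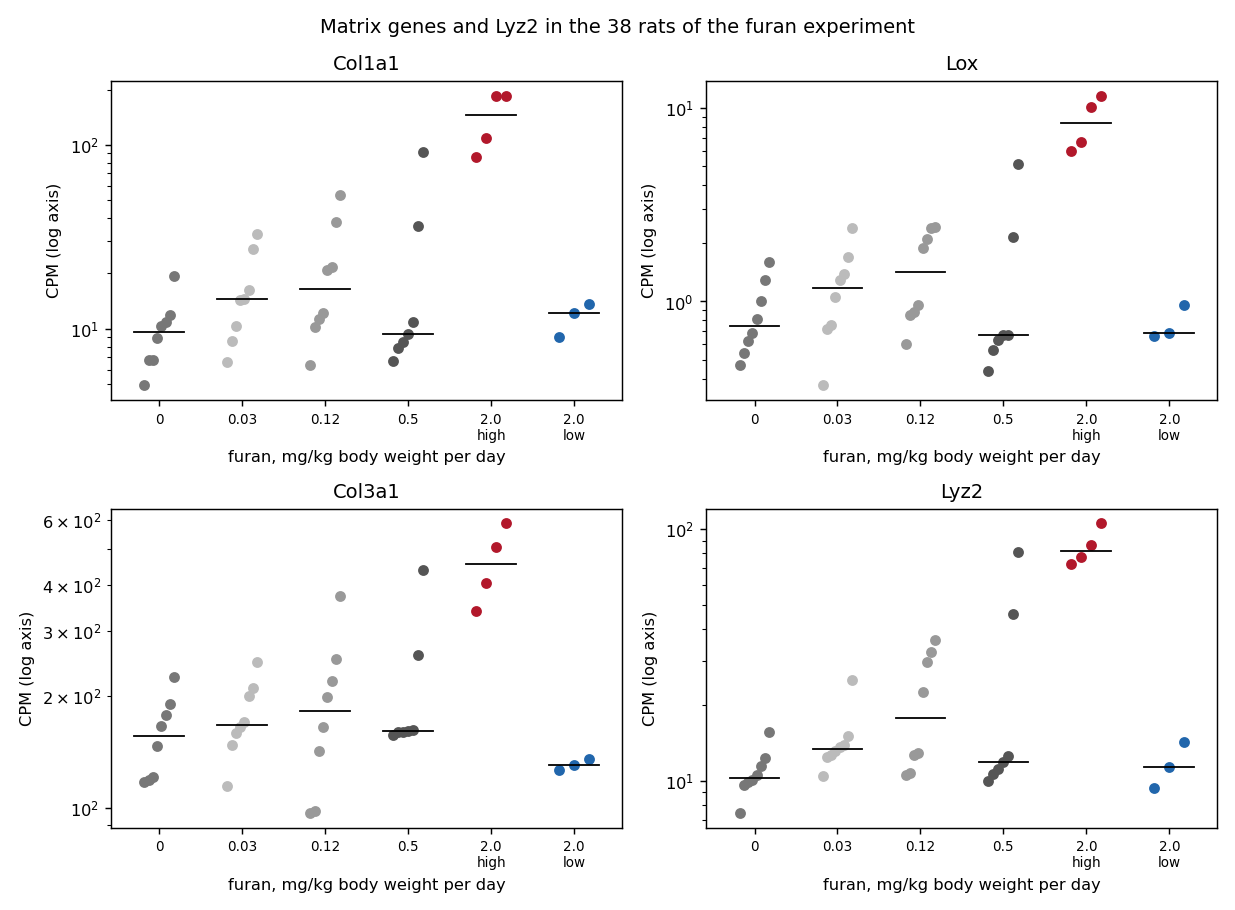
CPM (log axis) of Col1a1, Lox, Col3a1 and Lyz2 in the 38 rats of the furan experiment, 1 point per rat with a line at the median, by dose, with the 2.0 dose split into Col1a1-high and Col1a1-low rats. The Col1a1-low rats lie at the level of controls. Single rats at 0.12 and 0.5 mg/kg reach 53.6 and 91.0 CPM of Col1a1. After TMM scaling the latter lies above the Col1a1-high rat ME083 (86.1 CPM). On total counts, which made the sets, the highest rat at 0.5 mg/kg (96.7 CPM) lies below ME083 (108 CPM).

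**Figure D5:**
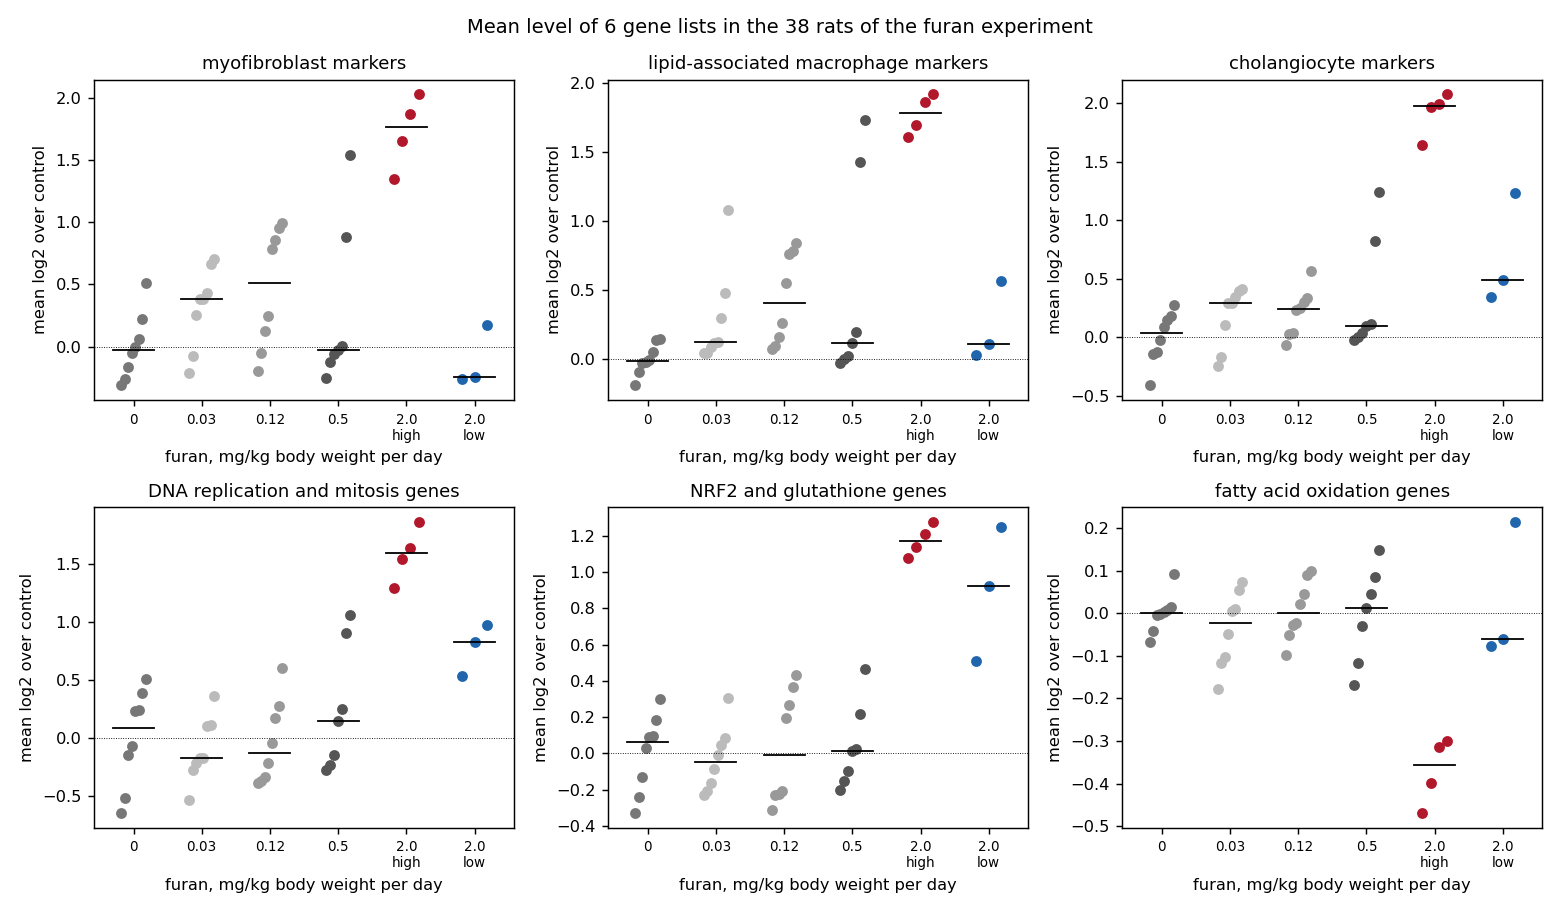
Mean log2 level over controls of 6 gene lists in the 38 furan rats, by dose, 1 point per rat with a line at the median. The myofibroblast list is 1.35 or more in Col1a1-high rats, at most 0.18 in Col1a1-low rats and reaches 1.55 at 0.5 mg/kg, while the NRF2 list is 0.51 or more in all 7 rats at 2.0 and at most 0.46 in every other furan group.

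In the 32 rats of the 3-methylfuran experiment, whose Col1a1 reached at most 10.9 CPM of total counts, 16 of 11929 genes (0.134%) had a positive slope and 0 (0%) a negative one, with 906 at an unadjusted p under 0.05. DESeq2 called 35 positive and 7 negative, and without the 2 rats farthest from the median Col1a1 edgeR called 6. All 16 were separated and at least 2-fold higher in Col1a1-high rats at furan 2.0, and 15 of them also had a positive slope in the other furan rats. Mgp, the matrix Gla protein, had a slope of 0.65 ± 0.10 (SE, edgeR adjusted p = 0.00171) and Scara5, a ferritin receptor of fibroblasts, 1.73 ± 0.25 (adjusted p = 0.000735). Lpl, lipoprotein lipase, had 0.76 ± 0.14 (adjusted p = 0.00794) and Fbn1 0.34 ± 0.07 (adjusted p = 0.0375). Lox had 0.87 ± 0.20 and missed the threshold (adjusted p = 0.0736), as did Col3a1 at 0.27 ± 0.07 (adjusted p = 0.113). Mmp12 had -0.03 ± 0.36 (adjusted p = 0.995) and Lyz2 -0.10 ± 0.26 (adjusted p = 0.962), and neither could be told from 0. The library kit differed between the experiments, so the counts of called genes are not compared between them.

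Over the 7 rats, the genes whose log2 CPM followed Col1a1 most closely by Pearson correlation were Serpinh1, Lgals1, Igsf10, Aebp1, Lox, Lpl, Ahnak, Cygb, Fbn1 and Tgfb3. The rats lie in 2 clusters and the ranking uses the Col1a1 values that made the sets, so it restates the split and no coefficient is given. Within the Col1a1-low rats, ME092 was the highest in Spp1, Mmp12, Gpnmb, Cftr and Akr1b8, and in each of these, as in Postn, it lay above every control. Its Lox (0.957 CPM) and Col3a1 (127 CPM) were inside the control range. ME086 stood apart from the other 6 rats as the lowest, by at least 1 log2 unit and beyond Dixon's critical value, in 13 genes, among them Gstp1 and Cyp2c24, a P450 gene (3.47 CPM in ME086, against 10.8 CPM or more in the other rats at 2.0), and ME089 in 2 genes. All genes tested with a mean of at least 5 CPM in either set were screened for this. How many chance would give was not tested.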

How the data were processed

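Livers of male rats dosed for 90 days were sequenced as stranded poly(A) libraries, per the labels' protocols. The deposited tables hold raw read counts per gene for each run, made by the authors with STAR 2.7.1a and featureCounts 2.0.0 on Rnor_6.0, per the submitters' processing notes; the strand setting and annotation are not given in the sources used here. From the authors' deposited comparison tables (DESeq2 1.26.0, per the same notes), which hold fold changes, a linear ratio for 3-methylfuran, and adjusted p-values, only gene names were taken. Of 32883 genes, 19777 had a symbol.

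Runs of a rat were summed (2 per furan rat, 3 per 3-methylfuran rat), so each replicate is a separate animal. Genes were filtered with edgeR 4.0.16 (filterByExpr, minimum count 10), scaled by TMM in R 4.3.3, and expressed as CPM. The 2.0 rats were divided at 50 Col1a1 CPM of total counts, and this division was described without a test. Tests were edgeR's robust quasi-likelihood F test with Benjamini-Hochberg adjustment over all genes: furan 2.0 against controls in 38 rats, and the slope on log2 Col1a1 with dose group as a covariate in 31 furan rats and in 32 3-methylfuran rats. Standard errors are the estimate divided by the root of F. The code was tested on simulated data. Alternatives were RLE and total-count scaling, other filters, prior counts, thresholds and folds, single runs, rats left out, and DESeq2 1.42.0. Genes named are the leading members of each list, the 12 largest separated differences each way, the 10 most like Col1a1, the 10 with the smallest adjusted p at 2.0, the 8 with the smallest in each slope fit and genes in which 1 rat stood apart; a few further members (Alb, Clec4f, Fosl1, Mki67, Sox9, Trem2 and the members that ran against their list) were picked after their values were seen. The members and lists were chosen with earlier results of these data known. Promoters came from RefSeq (GRCr8), a build other than that of the counts, and were matched by symbol.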

Additional observations from a re-analysis of the deposited data

Results flagged for a closer look

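In 20 genes, each looked at in the Col1a1-high rats, in all rats at 2.0 and in the controls (60 groups), 5 groups held 1 rat far from the rest on the log2 scale, where chance gives about 1 in 20 groups. Among Col1a1-high rats, Spp1 was highest in ME081 at 30.4 CPM, with the next at 21.7 CPM. Crot was lowest in ME082 at 67.7 CPM, with the next at 120 CPM. Over all 7 rats at 2.0, Gstp1 was lowest in ME086 at 20.9 CPM, with the next at 118 CPM. Among controls, Slc7a11 was highest in MC004 at 0.275 CPM, with the next at 0.0674 CPM, and Rgs16, a regulator of G protein signalling, was highest in MC011 at 85.3 CPM, with the next at 12.3 CPM.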

How the results depend on the processing

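Total-count scaling left the separated genes in both directions together at 4736, within 1.5 times, and moved the other counts: 1003 genes were separated and at least 2-fold higher and 4 lower, 4431 higher and 305 lower at any size, 9451 were called at 2.0, 1185 had a Col1a1 slope in furan rats and 28 in 3-methylfuran rats. The share of higher calls became 93.56% instead of 45.78% for the split, 91.82% instead of 51.56% at 2.0 and 98.31% instead of 82.52% for the furan slope. Without a filter on low counts, 918 genes were separated and at least 2-fold higher, 15 lower, and 7 had a 3-methylfuran slope. With a mean of at least 1 CPM, 2 were 2-fold lower and 9 had a 3-methylfuran slope. The 2-fold lower genes numbered 13 with a prior count of 0.5 and 5 in run 2 alone. At 1.5-fold, 1098 were higher and 147 lower. Without the 2 rats farthest from the median Col1a1, 374 furan slopes and 6 3-methylfuran slopes were called, and 461 furan slopes without the 0.5 dose. DESeq2 called 42 3-methylfuran slopes. Leaving out 1 rat of the 7, which can only ease separation apart from rescaling, gave 520 to 892 genes 2-fold higher, 7 to 30 2-fold lower, 1982 to 2832 higher at any size and 4164 to 5921 in both directions, each highest without ME092. Leaving out 1 rat gave 5353 to 6355 calls at 2.0. RLE scaling and leaving out controls in the furan slope moved no count by over 1.5 times, and no called difference changed sign. Col1a1 thresholds of 25 and 80 gave the same sets, because no rat lay between 16.4 and 108 CPM of total counts. Their counts were therefore fixed in advance and check nothing. The split held more higher than lower genes not only with total counts but also without the filter (2418 and 2165). List medians changed sign with total counts for fatty acid and cholesterol synthesis (0.08), ATF4 (0.19), adipocyte (0.13), sinusoidal endothelial (0.20) and circadian clock genes (0.26). Causes of these moves were not tested. Few reads lie behind levels under 1 CPM, which limits the differences of Postn, Slc7a11, Spp1, Mmp12, Lox, Trem2 and Fosl1. No paired analysis was possible because the groups share no replicate numbers.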
